A study of Mus musculus with 8 samples.

Results

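Matricellular and adhesive glycoproteins are secreted into the extracellular matrix, where they tie cells to collagen fibres, bind growth factors or modulate adhesion. In the pancreas they are made chiefly by fibroblasts, stellate cells and cells of the vessel wall, and they surround islets together with the basement membrane. The 10 genes described here were the adhesive protein fibronectin (Fn1), tenascin C (Tnc), the thrombospondins Thbs1 and Thbs2, Sparc and its relative Sparcl1, periostin (Postn), matrix Gla protein (Mgp), dermatopontin (Dpt) and the proteoglycan versican (Vcan). They were chosen by name, with earlier results of these data known. Every probe set annotated to exactly 1 of them was taken, which gave 24 of the 45101 probe sets of the array. The 10 were among 18194 genes with at least 1 probe set of their own.

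RNA of pancreatic islets of male C57Bl/6J mice was measured on Affymetrix mouse arrays in 4 HF samples (replicates 21, 22, 23 and 24) and 4 NC samples (replicates 1, 2, 4 and 5). HF mice received a diet with 45 kcal% fat and NC mice regular rodent chow, from weaning at 4 weeks of age. The labels give 12 weeks on diet, and the methods of the study give a longer time. All mice, on both diets, carry the deletion in the Nnt gene that is natural to this substrain. Islets were hand picked after collagenase digestion and a density gradient, and the islets of 2 mice were combined in each sample, so that n counts pools. Values are GCRMA intensities, that is, probe set levels on a linear scale after the authors' background adjustment and normalization across arrays. The median intensity of an array lay between 13.03 and 13.8. Beta cell markers were bright in every sample, with a summed intensity of 8 markers of 263796 to 276569 in HF and 249351 to 255257 in NC islets, without overlap. Markers of acinar cells were bright as well, with a summed intensity of 6 markers of 261852 to 303627 in HF and 243994 to 311851 in NC islets.

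Of the 24 probe sets, 7 were lower in HF islets and none was higher. They belonged to 6 of the 10 genes, namely Dpt, Postn, Sparcl1, Sparc, Thbs1 and Mgp. A probe set was tested where its third-highest intensity over the 8 samples was at least 8.8, and a change was called at an adjusted p under 0.05 from limma (Benjamini-Hochberg over 25645 probe sets) with a fold change of at least 1.5. By that rule 3.05% of all tested probe sets were lower and 0.643% were higher. Shares of this kind only describe, since the members were chosen with earlier results of these data known. Of the other members 3 probe sets were tested and did not pass, and 14 lay under the filter. All 8 samples lay over the filter in each of the 10 tested member probe sets. The 4 HF values lay wholly below the 4 NC values in 8 of these 10, against 7.83% of all tested probe sets, and in none did they lie wholly above, against 6.8%. Over all 24 probe sets in a fit without a filter the median log2 fold change was -0.03, beside 0.01 over the array. In that fit 6 member probe sets passed as lower, against 1.27% of all probe sets, and 0 as higher. Without HF replicate 21 or without HF replicate 24 the count of lower member probe sets was 4.

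**Figure D1:**
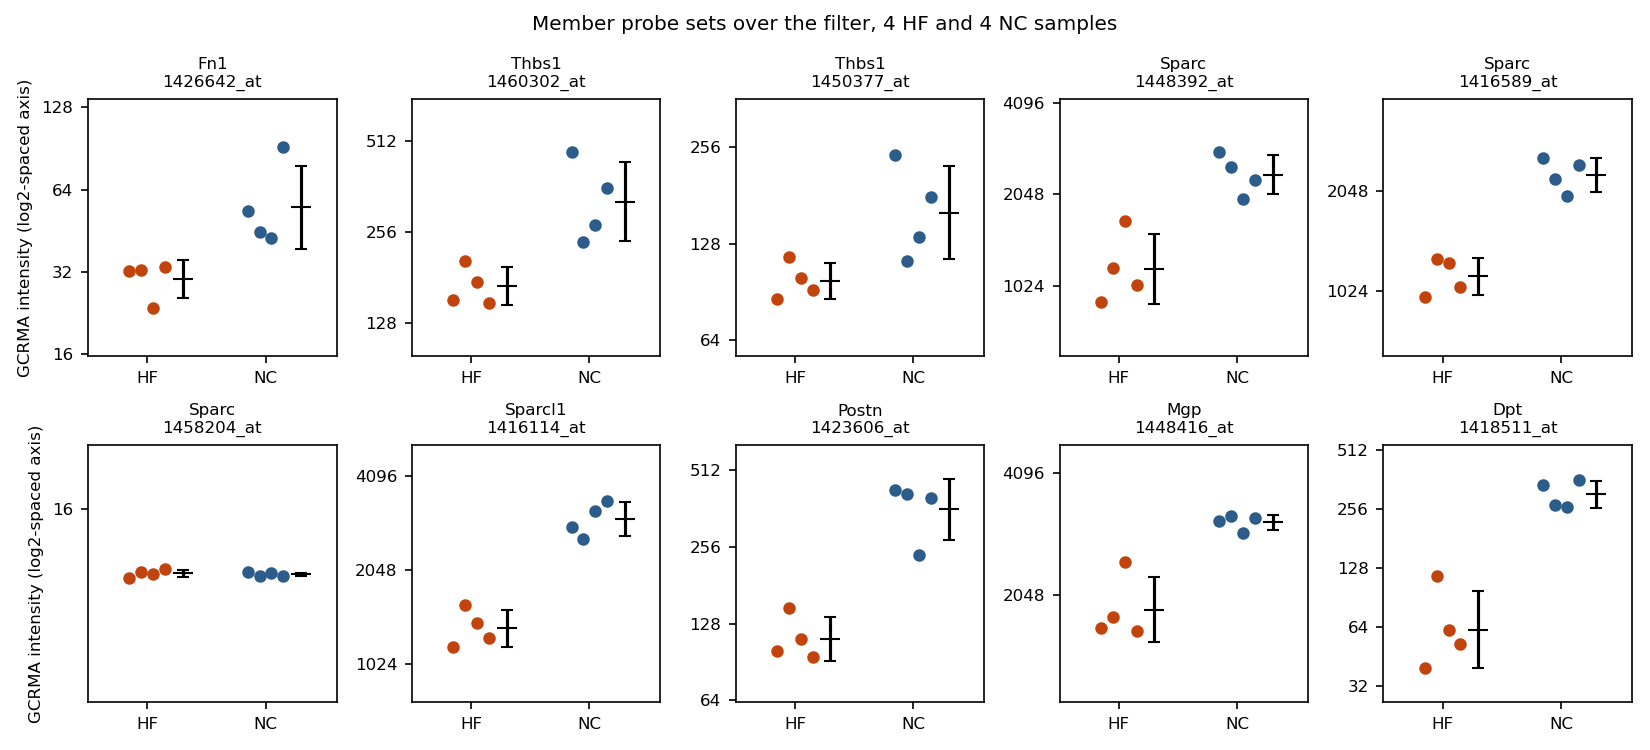
GCRMA intensity (log2-spaced axis, a separate range in each panel) of the 10 member probe sets over the filter in each of the 4 HF and 4 NC samples, and bars for each diet's mean log2 value and its SD. The HF points lie below all NC points in 8 panels, the exceptions being Thbs1 1450377_at and Sparc 1458204_at.

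Dermatopontin and periostin, both of which bind collagen and take part in the assembly of its fibrils, had the largest changes among the members tested. Dpt (chr1:164796663-164824274 in GRCm38.p6) was read by 1 probe set. Its intensity was 39.5, 116, 61.4 and 52.3 in HF replicates 21 to 24, against 338, 268, 261 and 359 in NC replicates 1, 2, 4 and 5. The highest HF sample was replicate 22, and it stayed well under the lowest NC sample. The mean intensity was 67.2 ± 33.6 in HF and 307 ± 49.4 in NC islets (SD, n = 4 each). The log2 fold change, here and below the difference between the diets' means of log2 intensity, was -2.29 (SE 0.30, 95% interval -2.99 to -1.60, limma adjusted p = 0.00522). This was the 84th lowest log2 fold change of the 25645 probe sets tested.

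Postn (chr3:54359267-54391041), a protein with fasciclin domains that activated fibroblasts secrete, had intensities of 99.9, 147, 112 and 94.3 in HF, against 426, 412, 238 and 398 in NC islets. NC replicate 4 was the lowest NC sample by a wide margin, and it still lay above every HF sample. Means were 113 ± 23.6 in HF and 369 ± 87.6 in NC islets (SD, n = 4 each), with a log2 fold change of -1.69 (SE 0.21, 95% interval -2.18 to -1.20, limma adjusted p = 0.00446). HF replicate 22 was again the highest HF sample. In both genes the call was kept in each of the 8 fits that left out 1 sample, with a log2 fold change of -2.60 to -2.08 for Dpt and of -1.89 to -1.61 for Postn.

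Sparc and Sparcl1 encode secreted glycoproteins that share a collagen-binding domain and a follistatin-like domain, and Sparc is known as a regulator of collagen deposition. Sparcl1 (chr5:104079108-104114088) had intensities of 1160.3, 1587, 1387 and 1241 in HF, against 2814, 2568, 3158 and 3408 in NC islets. The 2 groups were far apart, and HF replicate 22 was once more the highest of its group. Means were 1344 ± 187 in HF and 2987 ± 370.5 in NC islets (SD, n = 4 each), that is, 2.23-fold lower in HF (log2 fold change -1.15, SE 0.12, limma adjusted p = 0.00233).

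Sparc (chr11:55394159-55420080) was read by 3 probe sets, of which 2 were bright and passed. On 1416589_at the intensities were 982.5, 1277, 1246 and 1055 in HF, against 2570.2, 2212, 1967 and 2445 in NC islets. On 1448392_at they were 902, 1170.1, 1668 and 1033 in HF, against 2816, 2521, 1982 and 2278 in NC islets. The order of the samples within HF differed between them, with replicate 22 the highest on 1416589_at and replicate 23 on 1448392_at. Log2 fold changes were nearly the same, -1.01 on 1416589_at (SE 0.12, limma adjusted p = 0.00302) and -1.03 on 1448392_at (SE 0.19, adjusted p = 0.0202). The call of 1448392_at ended without HF replicate 21 or 24 or NC replicate 1 or 2, with adjusted p between 0.0514 and 0.0675, while that of 1416589_at was kept without any one sample. The remaining probe set, 1458204_at, was dim and almost constant. It lay between 12.8 and 13.1 in HF and between 12.9 and 13.01 in NC islets, and its log2 fold change was 0.00 (95% interval -0.09 to 0.10). Its highest value was 1.03 times its lowest, as flat as most member probe sets under the filter. This probe set is therefore not shown to read Sparc RNA.

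Sparcl1 and Sparc did not differ detectably in their response to the diet. The log2 intensity of Sparcl1 minus that of the brightest Sparc probe set was 0.20 ± 0.32 in HF and 0.32 ± 0.36 in NC islets (SD, n = 4 each). The difference between these means was -0.12, with an interval of -0.94 to 0.44 (exact two-sided permutation p = 0.686). The interval still holds a diet effect on Sparcl1 that is much larger than that on Sparc, and also one that is smaller. It rests on Sparc 1448392_at, and the comparison was not made with 1416589_at, whose SE was smaller (0.12 against 0.19).

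**Figure D2:**
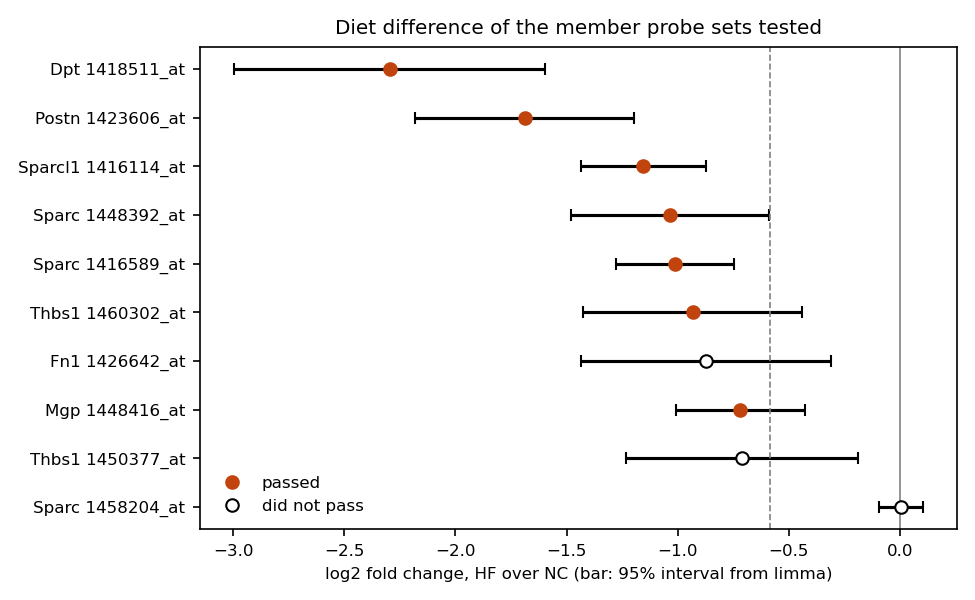
Log2 fold change in HF over NC islets (x axis) of the 10 member probe sets tested, with the 95% interval from limma, filled where the change passed. The dashed line marks a 1.5-fold lower level. The filled points run between -2.29 for Dpt and -0.72 for Mgp, and Sparc 1458204_at lies at 0.00.

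Matrix Gla protein, a small vitamin K-dependent inhibitor of calcification that is abundant in vascular smooth muscle and binds bone morphogenetic proteins, changed least among the genes that passed. Mgp (chr6:136872435-136875823) had intensities of 1689, 1802, 2474 and 1659.9 in HF, against 3111, 3204, 2909 and 3167 in NC islets. HF replicate 23 stood above the rest of its group, and the groups did not overlap. Means were 1906 ± 383 in HF and 3098 ± 132 in NC islets (SD, n = 4 each), that is, 1.65-fold lower in HF (log2 fold change -0.72, SE 0.13, 95% interval -1.01 to -0.43, limma adjusted p = 0.0157). The call ended narrowly without HF replicate 21 (adjusted p = 0.0503) and without HF replicate 24 (adjusted p = 0.0507).

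Thrombospondin 1, which binds the receptors CD47 and CD36 and can activate latent TGF-beta, was read by 2 probe sets with different outcomes. For Thbs1 (chr2:118111876-118127133) the brighter probe set, 1460302_at, had 152, 204, 175 and 149 in HF, against 470.2, 237, 270.0 and 358 in NC islets. The NC samples spread widely, with replicate 1 the highest and replicate 2 close to the highest HF sample. The log2 fold change was -0.93 (SE 0.21, 95% interval -1.43 to -0.44, limma adjusted p = 0.0430). That call was kept only without NC replicate 2 and ended in the other 7 fits that left out 1 sample (adjusted p between 0.0549 and 0.120), as well as without a filter (adjusted p = 0.0957). On 1450377_at the intensities were 85.9, 116, 100.3 and 91.8 in HF, against 242, 113, 134 and 179 in NC islets, so that HF replicate 22 lay above NC replicate 2. Its log2 fold change of -0.71 did not pass (95% interval -1.23 to -0.19, adjusted p = 0.119). The diet difference of the brighter probe set minus that of the dimmer was -0.22 on the log2 scale (interval -0.37 to -0.13, exact two-sided permutation p = 0.0286, the smallest that 4 against 4 samples allow, and adjusted p = 0.0286 over the 2 genes with several tested probe sets).

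Fibronectin, the dimeric glycoprotein through which integrins assemble matrix fibrils, did not pass the test. Fn1 (chr1:71585473-71653280) had intensities of 32.2, 32.4, 23.7 and 33.4 in HF, against 53.2, 44.6, 42.7 and 91.5 in NC islets on 1426642_at. All HF samples lay below all NC samples, and NC replicate 5 was far above the other NC samples. Means were 30.4 ± 4.54 in HF and 58.0 ± 22.8 in NC islets (SD, n = 4 each). The log2 fold change was -0.87 with an interval of -1.43 to -0.31 (limma adjusted p = 0.0804), which includes changes as large as those of Sparc. Its other probe set, 1437218_at, lay under the filter, between 5.80 and 6.19 in HF and between 5.82 and 6.08 in NC islets.

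**Figure D3:**
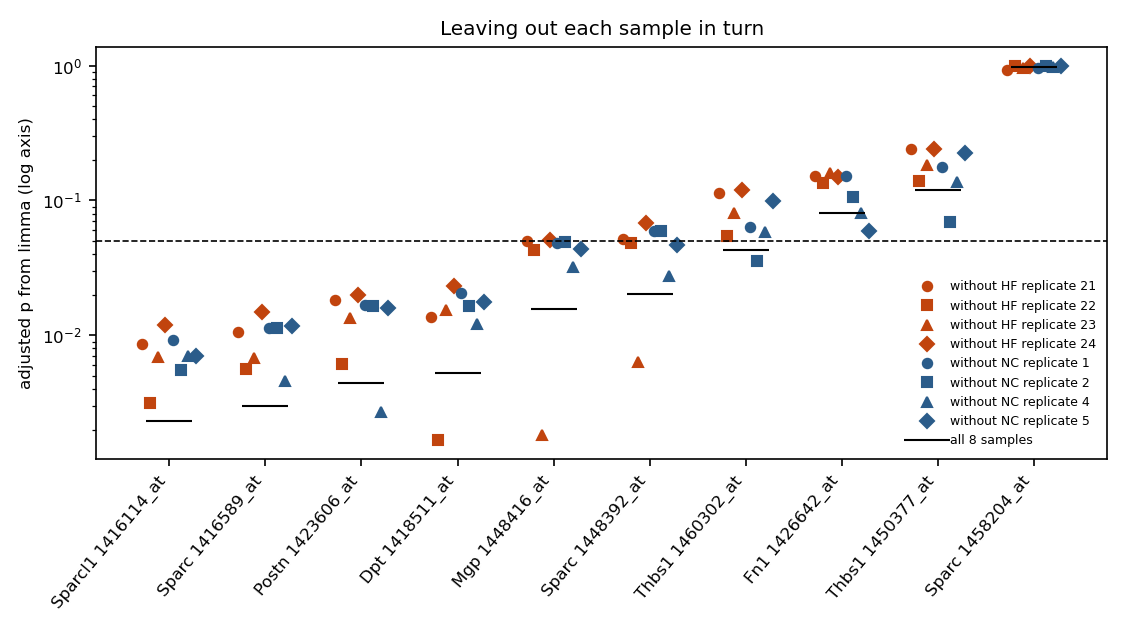
Adjusted p from limma (log axis) of the 10 tested member probe sets with all 8 samples (black bar) and without each sample in turn (red for a left-out HF sample, blue for a left-out NC sample). Points of Sparcl1, Sparc 1416589_at, Postn and Dpt all lie below the dashed line at 0.05, while those of Thbs1 1460302_at lie above it in 7 of the 8 fits.

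Tenascin C, thrombospondin 2 and versican had no probe set over the filter. Tnc (chr4:63959785-64047015), a large hexameric protein of developing and injured tissue, was read by 2 probe sets. On 1456344_at it had 7.57, 7.95, 7.45 and 8.59 in HF, against 8.06, 7.62, 7.77 and 7.58 in NC islets, and on 1416342_at it lay between 5.52 and 5.84 in HF and between 5.60 and 6.01 in NC islets. The groups overlapped on both. Thbs2 (chr17:14665500-14694262) was read by 3 probe sets, and on 2 of them all 8 values lay between 3.84 and 5.96. On the remaining one, 1450663_at, it had 5.86, 5.92, 5.81 and 6.12 in HF, against 5.98, 5.88, 7.32 and 8.78 in NC islets. NC replicates 4 and 5 stood above the other 6 samples there, which were close together. The planned comparison of Thbs2 with Thbs1 was not made, since no Thbs2 probe set was tested.

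Versican, a chondroitin sulphate proteoglycan that binds hyaluronan, was read by 8 probe sets (Vcan, chr13:89655309-89743027). On 1427256_at the intensity was 4.91, 5.26, 5.18 and 5.29 in HF, against 5.44, 7.91, 5.32 and 13.5 in NC islets. NC replicates 5 and 2 stood out, and NC replicate 5 was the one member value over 8.8 among the 14 probe sets under the filter. The lowest NC value lay barely above the highest HF value, and in a fit without a filter the log2 fold change of -0.53 had an interval of -1.21 to 0.15 (limma adjusted p = 0.567). The other 7 Vcan probe sets were nearly flat, with a highest value of at most 1.13 times the lowest. Over all 14 probe sets under the filter the highest value was 1.02 to 2.75 times the lowest, and it was under 1.2 times in 12 of them. Such values are close to what GCRMA assigns to a probe set with little signal, so that a difference was not detectable at this level and the RNA is not shown to be missing.

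**Figure D4:**
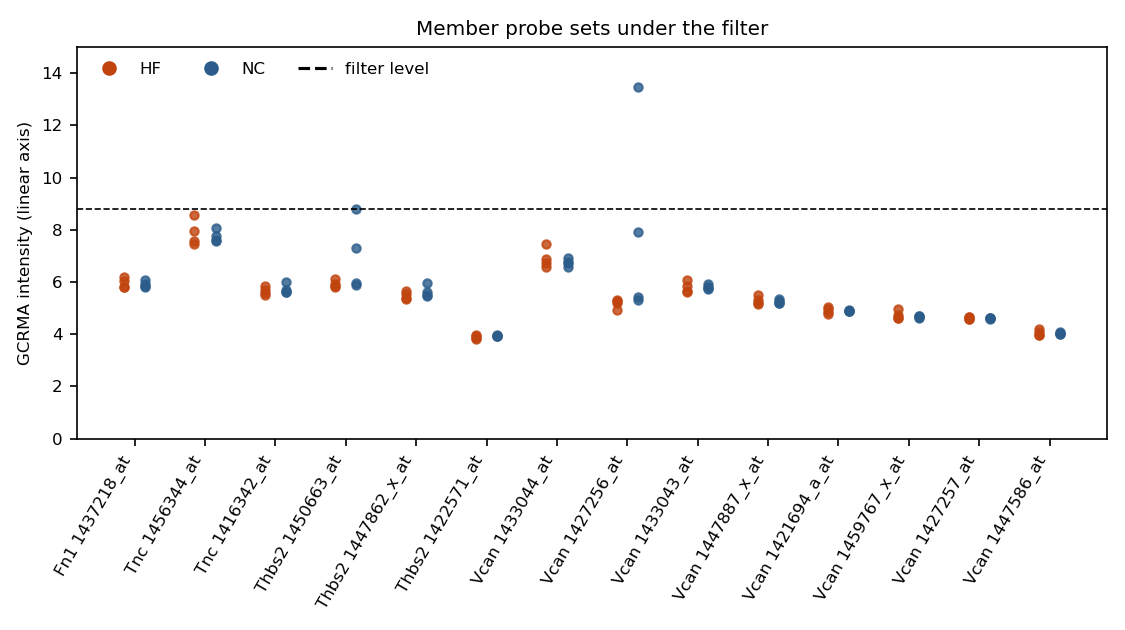
GCRMA intensity (linear axis) of the 14 member probe sets under the filter in the 4 HF (red) and 4 NC (blue) samples. The dashed line is the filter level of 8.8, and the points above 7 outside the Tnc and Vcan 1433044_at columns are NC samples of Thbs2 1450663_at and Vcan 1427256_at.

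The 7 probe sets that passed, which include 2 of Sparc, were also compared for the order of samples within each diet. HF replicate 22 was the highest HF sample in 5 of them and HF replicate 23 in the other 2. The lowest HF sample was replicate 21 in 4 and replicate 24 in 3. Among NC samples, replicate 4 was the lowest in 5 and replicate 2 in the other 2. The order of HF samples by summed marker level differed between cell types. These sums of linear intensities are weighted to the brightest marker of each list. Mean HF intensity was 1244.5 for Vim among fibroblast and stellate markers and 6470 for Rgs5 among smooth muscle and pericyte markers. It was 3199 for Emcn among endothelial markers and 422 for Pmp22 among Schwann and glial markers. Replicate 22 was the highest for fibroblast and stellate cell markers (2583) and for smooth muscle and pericyte markers (8170.0), replicate 23 for endothelial (6817) and Schwann and glial markers (561), and replicate 21 for macrophage markers (1056). Replicate 21 was the lowest for each of these lists but that of macrophages, and also for acinar markers (261852). It was the highest HF sample for beta cell (276569) and alpha cell markers (181550). NC replicate 4 was the lowest NC sample for the fibroblast, smooth muscle, endothelial, Schwann and macrophage lists and for acinar markers (243994). It was the highest NC sample for beta cell (255257) and alpha cell markers (176235). For duct markers the lowest samples were HF replicate 22 (2854) and NC replicate 1 (2992). Whether these orders are linked was not tested.

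RefSeq windows of GRCm38.p6 around the transcription start, 250 bases before it and 50 from it onward, were at hand for 6 of the 10 genes (Dpt, Postn, Sparc, Tnc, Thbs2 and Vcan). Those below are shown because they belong to 3 genes that fell and to 1 that lay under the filter. They are written 5′ to 3′ along the gene's strand, with exact matches on either strand to TATAAA, the core promoter box of that name, or to CAGACA, which holds a Smad-binding core, in capitals.
Dpt chr1:164796413-164796712 (+ strand): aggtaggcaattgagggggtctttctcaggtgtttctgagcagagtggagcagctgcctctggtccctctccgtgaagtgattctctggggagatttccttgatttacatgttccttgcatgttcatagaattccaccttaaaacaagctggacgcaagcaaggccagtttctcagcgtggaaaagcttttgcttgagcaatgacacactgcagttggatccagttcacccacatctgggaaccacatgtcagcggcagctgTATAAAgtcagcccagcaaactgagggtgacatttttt
Postn chr3:54360857-54361156 (+ strand): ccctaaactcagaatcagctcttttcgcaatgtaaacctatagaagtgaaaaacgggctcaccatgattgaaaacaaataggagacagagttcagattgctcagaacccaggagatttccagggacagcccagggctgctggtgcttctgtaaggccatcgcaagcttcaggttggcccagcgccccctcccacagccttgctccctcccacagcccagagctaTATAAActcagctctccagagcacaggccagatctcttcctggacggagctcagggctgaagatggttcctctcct
Sparc chr11:55420031-55420330 (- strand): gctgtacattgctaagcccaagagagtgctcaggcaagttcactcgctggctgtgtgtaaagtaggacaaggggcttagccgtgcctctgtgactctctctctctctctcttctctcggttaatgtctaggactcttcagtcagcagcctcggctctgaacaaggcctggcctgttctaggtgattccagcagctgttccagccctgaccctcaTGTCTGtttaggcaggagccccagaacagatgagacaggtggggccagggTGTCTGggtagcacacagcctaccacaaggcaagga
Thbs2 chr17:14694213-14694512 (- strand): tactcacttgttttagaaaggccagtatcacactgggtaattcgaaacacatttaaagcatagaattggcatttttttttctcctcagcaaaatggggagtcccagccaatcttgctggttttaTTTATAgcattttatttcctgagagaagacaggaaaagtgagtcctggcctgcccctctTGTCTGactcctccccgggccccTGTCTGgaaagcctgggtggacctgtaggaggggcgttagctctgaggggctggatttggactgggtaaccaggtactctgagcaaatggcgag
TATAAA began 26 bases before the start in the Postn window shown and at base 13 of the transcript in the Dpt window, and the Thbs2 window held its reverse complement. Both capital stretches of the Sparc window, and 2 of the 3 in the Thbs2 window, are reverse complements of CAGACA. Of all 32851 windows 13.6% held TATAAA and 21% CAGACA. The motifs GGGCGG (a Sp1 site), TGAGTCA (an AP-1 site) and GGAATG (a TEAD site) had no match in these 4 windows, and are held by 35.7%, 5.2% and 14.7% of all windows. A GGGCGG match occurred in the windows of Tnc and Vcan. The table also holds a second window of Postn, chr3:54359017-54359316, around the first base of the annotated gene, which has no match to any of the 5 motifs. Such matches describe letters, not binding.

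Related genes were read from the brightest tested probe set of each gene. By that rule 4.28% of 12308 genes were lower and 0.447% higher, and the median log2 fold change was 0.00. The lists too were chosen with earlier results known, so that their counts beside these shares are a description. Of 32 other matricellular and adhesive glycoproteins 25 were measured, 16 of them lower and none higher, with a median log2 fold change of -0.92. Fstl1, a secreted relative of follistatin and Sparc, had 233 ± 22.6 in HF and 617 ± 81.4 in NC islets (SD, n = 4 each), or -1.40 on the log2 scale (limma adjusted p = 0.000984). Efemp1, a fibulin, had a log2 fold change of -2.58 and Vwf, the adhesive protein of platelets and endothelium, of -3.12. Of the other thrombospondins, Thbs3 had -0.59 without passing (adjusted p = 0.0832), and Thbs4 and Comp were under the filter. Of the other tenascins, Tnxb was at least 2.46-fold lower (adjusted p = 0.0312) with all 4 HF values under the filter level, Tnr had -0.15 without passing (adjusted p = 0.525) and Tnn was under the filter. Of the relatives of Sparc, Smoc2 fell by 2.39 on the log2 scale and Spock3 by 0.92, while Smoc1, Spock1 and Spock2 had 0.32, 0.08 and 0.03 without passing. The count of lower genes in this list was smaller without HF replicate 21 (9 lower), HF replicate 24 (9 lower) or NC replicate 1 (10 lower).

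Most fibrillar partners, the collagens, elastic fibres and small proteoglycans that members bind and the enzymes that process them, were lower. Of 13 fibrillar partners 11 were measured, with 9 lower and none higher, at a median log2 fold change of -2.05 (-1.96 with values under 8.8 raised to that level). Col1a2, a chain of type I collagen, had 247 ± 68.0 in HF and 1430.3 ± 286 in NC islets, or -2.56 on the log2 scale (limma adjusted p = 0.00162). Tgm2, a transglutaminase that crosslinks fibronectin, had -1.90. Eln, elastin, was at least 3.87-fold lower, because its 4 HF values of 5.95 to 6.09 all lay under the filter level. That bound sets the NC mean of the log2 values against 8.8.

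Receptors of the members gave mixed results. Of 24 listed 20 were measured, with 7 lower, 13 not passing and a median log2 fold change of -0.14. Lrp1, an endocytic receptor for thrombospondins, had 107 ± 12.4 in HF and 214 ± 29.7 in NC islets, and passed as lower (limma adjusted p = 0.00372). Itga4, an integrin subunit that binds fibronectin, had -0.88 and Sdc1, syndecan 1, had -0.98. The thrombospondin receptors gave different outcomes, with Cd36 at -0.80 (adjusted p = 0.0192) and Cd47 at -0.08 (adjusted p = 0.607). Itgav and Itgb1, subunits of receptors for fibronectin and periostin, had 0.27 and 0.11 without passing. Sdc4, syndecan 4, had 0.36 with a limma adjusted p of 0.0468 and missed only the fold limit. The receptor count was 4 in each of the fits without HF replicate 21, 23 or 24 or without NC replicate 1, 2 or 5.

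Of 17 versican partners and cleaving enzymes 6 were measured, with 1 higher and none lower. Hapln4, a link protein that joins hyaluronan to lecticans, had 2129.9 ± 82.3 in HF and 1389 ± 45.4 in NC islets, or 0.62 on the log2 scale (limma adjusted p = 0.00106), just over the fold limit of 1.5, and it did not pass with samples scaled on beta cell markers. Hapln1 had 0.52 (adjusted p = 0.133) and Adamts1, a protease that cleaves versican, -0.79 (adjusted p = 0.203). Has1, Has2 and Has3, the hyaluronan synthases, were all under the filter. Of 10 genes of Mgp carboxylation and of BMP ligands and antagonists 7 were measured, with 1 lower and none higher. The one that fell was Gas6, another vitamin K-dependent protein, with a log2 fold change of -0.90 (adjusted p = 0.00358), whereas Ggcx, the carboxylase itself, had 0.41 with an adjusted p of 0.0183 and missed only the fold limit (860.1 ± 61.7 in HF and 646 ± 44.1 in NC islets, SD, n = 4 each), and Vkorc1 and Vkorc1l1, of the vitamin K cycle, had 0.18 and 0.03 and did not pass.

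**Figure D5:**
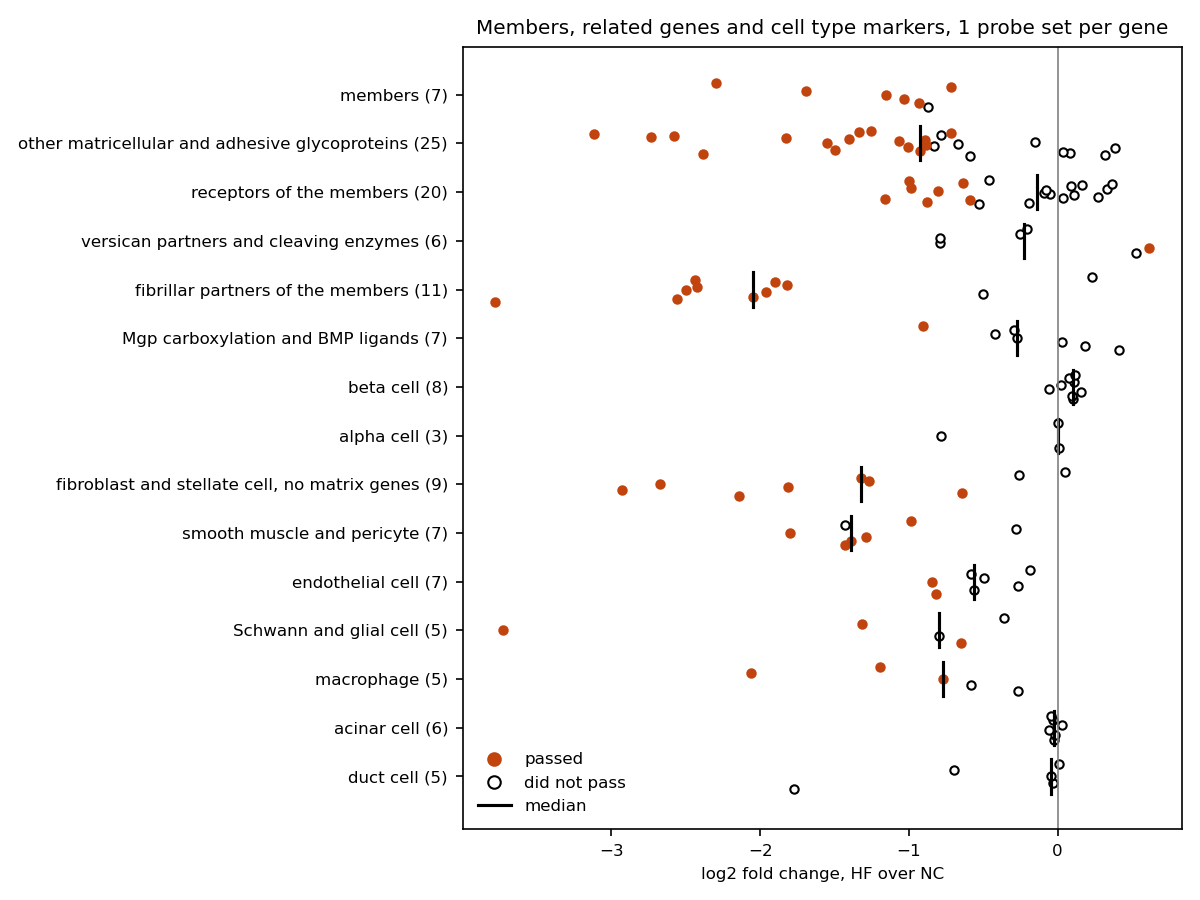
Log2 fold change in HF over NC islets (x axis) of the 7 members with a tested probe set, of the related genes and of the cell type markers, 1 probe set per gene, filled where the change passed. Vertical bars are list medians, from -2.05 for the fibrillar partners to 0.10 for beta cell markers, and none is drawn for the members.

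Some or most markers of connective tissue, vessel wall, nerve sheath and macrophages were lower in HF islets too. Leaving matrix genes aside, 12 markers of fibroblasts and stellate cells were listed, 9 were measured and 7 were lower (4 in the fit without a filter, 3 without HF replicate 21 or 24, and 4 without HF replicate 23 or NC replicate 1 or 5), with summed intensities of 1801 to 2583 in HF and 5458 to 6655 in NC islets (Fap, Gli1 and Twist1 were under the filter). Of 9 smooth muscle and pericyte markers 7 were measured and 5 were lower (7145 to 8170.0 in HF, 10809 to 12020.2 in NC). Endothelial markers were lower for 2 of 7 measured (4 without HF replicate 23), with sums of 6087 to 6817 in HF and 7205 to 9091 in NC islets. Schwann and glial markers were lower for 3 of 5 (427 to 561 in HF, 1206 to 1377 in NC). That count was 2 in the fit without a filter and without HF replicate 22 or 24 or NC replicate 1, 2 or 4. Macrophage markers were lower for 3 of 5 (859 to 1056 in HF, 1699 to 1985 in NC). None of 8 beta cell, 3 alpha cell, 6 acinar and 5 duct cell markers passed. The duct marker Krt19 came near, with a log2 fold change of -1.77 (limma adjusted p = 0.0535) and all 4 HF values under the filter level, and 1 duct marker was called lower with an intensity trend, with beta cell marker scaling and without NC replicate 5. The alpha cell marker Irx2 had -0.78 (adjusted p = 0.0575), and 1 alpha cell marker was called lower with the stricter filter, with beta cell marker scaling and without HF replicate 21. No value on the array is 0. The part of these cells in the lower member levels was not tested, and in RNA of whole islets fewer cells of a type and less RNA per cell cannot be told apart.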

How the data were processed

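The authors read probe intensities of Affymetrix MOE 430v2 arrays into ArrayAssist Lite and summarised each probe set with GCRMA, and the deposited values are intensities on the linear scale, 1 array per sample. The annotation table pairs 34958 probe sets with 1 gene and 932 with several, and leaves 9211 unnamed. Values were taken to log2 with no other normalization. The methods kept probe sets flagged present in at least 3 samples. Flags were not used here, and 25645 probe sets with a third-highest intensity of at least 8.8, about as many as the methods kept, were retained. Diets were tested with limma 3.58.1 in R 4.3.3 (lmFit, eBayes), in place of SAM, with Benjamini-Hochberg adjustment over all retained probe sets. This test was checked on simulated data. Exact permutation tests used the 70 arrangements of 4 and 4 samples, and intervals beside them hold the shifts not rejected at 0.05. Of related genes, up to 3 per list were named by smallest p, or by highest mean where fewer passed, and other list genes were picked with their values known. The members and lists were chosen with earlier results of these data known. Listed symbols without a probe set of their own were counted as not measured. Replicates are pools of 2 mice, and the small number of arrays limits precision.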

Additional observations from a re-analysis of the deposited data

Results flagged for a closer look

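For each of the 24 member probe sets, the highest and the lowest sample within each diet were set against the rest of the group, and chance flags about 1 in 20 such groups. A sample stood apart in 2 cases, about as many as that rate gives for independent groups. The groups here are not independent, since several probe sets read the same gene. HF replicate 24 was also the highest HF sample on each member probe set under the filter. The rate therefore cannot decide whether these 2 cases arose by chance. HF replicate 23 was the lowest HF sample on Fn1 1426642_at, with an intensity of 23.7, while the other HF samples lay between 32.2 and 33.4. NC replicate 4 was the lowest NC sample of Postn, with 238, while the other NC samples lay between 398 and 426. Without HF replicate 23 the log2 fold change of Fn1 was -0.76, and without NC replicate 4 that of Postn was -1.89.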

How the results depend on the processing

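The count of lower member probe sets was 7, and 4 with the Student t-test and Benjamini-Hochberg adjustment. Leaving out 1 sample gave 4 to 6. It was 6 without a filter and 7 with each of the other limma settings (intensities of at least 50, quantile, median or beta cell marker scaling, trend, array weights, low values raised). Related glycoproteins had 10 lower genes without a filter and 9 to 14 without 1 sample. Receptors had 4 without a filter or with the stricter one, 4 to 6 without 1 sample, and 1 higher when every retained probe set was counted, which also gave 19 lower for fibrillar partners. Versican partners had 0 higher with beta cell marker scaling and 1 to 2 without 1 sample (2 without HF replicate 23). Without 1 sample, Sparcl1 minus Sparc lay between -0.226 and 0.0361 and changed sign without HF replicate 23, the Thbs1 probe set difference between -0.24 and -0.19, and that of Sparc, which restates the bright probe set since the dim one is flat, between -1.21 and -0.93, both with an adjusted p of 0.0571 without any 1 NC sample. Sparc 1458204_at, at 0.00, was -0.0743 with beta cell marker scaling and -0.0027 to 0.0117 without 1 sample. The causes were not tested. Of the single probe sets under all settings, 157 values kept direction and side of the threshold, 17 lost their call, 2 gained one and 2 changed sign. No paired analysis was possible because the diets share no replicate number. Apart from 13.5 in NC replicate 5 on Vcan 1427256_at, all values of the 14 dim probe sets lie under 8.8, which limits what they can show.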

Other observations

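One further probe set, 1421811_at, is annotated both to Thbs1 and to Pald1, so that the rule leaves it out. Its intensity was 2530.2, 3701, 2365 and 2754 in HF replicates 21 to 24, against 6049.6, 3865, 4409 and 5442 in NC replicates 1, 2, 4 and 5, which is brighter in each sample than both Thbs1 probe sets of the report. The HF samples lay below the NC samples. Its log2 fold change of -0.80 passed (SE 0.18, limma adjusted p = 0.0404), but not in a fit without a filter (adjusted p = 0.0887). In both groups it had the same highest sample as Thbs1 1460302_at, HF replicate 22 and NC replicate 1. Which of the 2 genes it reads cannot be told apart from the annotation used here.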
